A study of Mus musculus with 18 samples.

Results

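Levels of 10 genes of the crypt stem cell zone and of Wnt signalling were read in RNA sequencing libraries of mouse colon. The genes are Lgr5, Ascl2, Smoc2, Axin2, Sox9, Ephb2, Rnf43, Znrf3, Lrig1 and Rspo3. They were taken by name from the 35405 genes of the deposited table, with earlier results of these data known. All 10 passed the filter on low counts, which 20855 genes passed in all. The 18 libraries form 3 groups of 6, named IBC (isobavachalcone, a plant chalcone), TNBS (trinitrobenzene sulfonic acid, which sets off colitis as a hapten) and vector (named control in the table). Per the labels all libraries are polyadenylated RNA of colon tissue. Whether the mice of the IBC group were also given TNBS is not stated, and neither are doses, times, strain, sex and age. Nothing states that the libraries of a group come from separate animals, so p-values here measure only how libraries of a group spread, which need not be the spread between animals.

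The colonic epithelium is renewed from stem cells at the base of the crypts, which depend on Wnt ligands and R-spondins from the surrounding stroma. R-spondins bind LGR receptors and clear the ubiquitin ligases RNF43 and ZNRF3 from the cell surface, so that Frizzled receptors last longer and beta-catenin with TCF transcription factors switches on target genes. Several of those targets, among them Axin2, Rnf43 and Znrf3, encode inhibitors that feed back on the pathway.

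Libraries held 55.7 to 78.9 counts in units of 1e6. The mitochondrial share was 17.98% in vector 3, against 4.48 to 9.2% elsewhere, and vector 3 was the lowest vector library for 5 of the 10 genes. IBC 5, with a share of 5.19%, was the lowest IBC library for 8 of the 10. The libraries divide into 2 sets that do not follow the groups. Hoxb13, a posterior homeobox gene of the distal colon, was above 10 CPM (counts per 1e6 counts of the scaled library) in 12 libraries, with 123 to 598 CPM, and the remaining 6 libraries had 0 to 1.44 CPM. Hoxb6, a homeobox gene of more anterior position, was at 1.30 to 2.84 CPM in the 12 Hoxb13-high libraries and at 15.7 to 98.3 CPM in the 6 Hoxb13-low libraries. Each group has 4 Hoxb13-high and 2 Hoxb13-low libraries. The Hoxb13-low ones are IBC 2 and 5, TNBS 2 and 3, and vector 3 and 4. The summed level of 10 pan-epithelial markers (Epcam, Cdh1, keratins and others) was 8690 to 15100 CPM in IBC, 9780 to 13000 CPM in TNBS and 9410 to 12700 CPM in vector libraries, with no marker at 0. Vector 6 also carried 23900 CPM of pancreatic acinar markers, against 16.7 to 380 CPM in the other 17 libraries. In bulk tissue, fewer cells of a type and less RNA per cell cannot be told apart.

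RefSeq promoter entries (GRCm38.p6, 250 bases before and 50 after a start) matched 5 of the 10 genes, namely Ascl2, Axin2, Ephb2, Lrig1 and Rnf43, the last with 2 starts. The 250 bases before the start are shown for Ephb2 and Lrig1, whose levels followed each other most closely between libraries, and for Axin2, the Wnt target most often used as a readout. They lie at chr4:136836013-136836262 on the minus strand for Ephb2, at chr6:94700146-94700395 on the minus strand for Lrig1 and at chr11:108920099-108920348 on the plus strand for Axin2. Capitals mark CANNTG, the E-box core read by basic helix-loop-helix factors such as ASCL2.
Ephb2: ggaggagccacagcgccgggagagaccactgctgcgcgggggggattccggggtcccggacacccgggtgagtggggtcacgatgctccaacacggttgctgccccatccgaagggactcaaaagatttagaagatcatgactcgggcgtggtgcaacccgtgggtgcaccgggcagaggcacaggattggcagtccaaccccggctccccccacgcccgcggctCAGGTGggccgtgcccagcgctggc
Lrig1: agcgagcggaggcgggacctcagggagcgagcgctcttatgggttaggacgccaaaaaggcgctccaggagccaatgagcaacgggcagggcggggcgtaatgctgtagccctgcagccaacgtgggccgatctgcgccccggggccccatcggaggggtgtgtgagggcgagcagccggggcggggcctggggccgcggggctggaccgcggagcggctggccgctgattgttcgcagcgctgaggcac
Axin2: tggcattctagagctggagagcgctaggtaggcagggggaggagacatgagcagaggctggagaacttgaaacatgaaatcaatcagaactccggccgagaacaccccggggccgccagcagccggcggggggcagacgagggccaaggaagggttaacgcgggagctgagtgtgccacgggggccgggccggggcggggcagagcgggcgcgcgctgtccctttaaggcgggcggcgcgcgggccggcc
The Ephb2 stretch holds 1 E-box core, while Lrig1 and Axin2 hold 0 in these bases, and 66.2% of all 32851 promoter entries hold at least 1. Ascl2 itself has 2 in its stretch. The TCF/LEF cores (CTTTG followed by AA, AT, TA or TT), searched on both strands of the 300 bases, are found in 0 of the 6 windows of these genes and in 16.9% of all entries. GC content of the printed stretches is 68.4% for Ephb2, 71.6% for Lrig1 and 69.2% for Axin2, against 44.4% and 45.2% at the 2 starts of Rnf43. A match is a description of letters only, and sites further away were not searched.

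Levels per transcript length, in the deposited FPKM (fragments per kilobase and per 1e6 fragments), set the genes in an order over the 18 libraries. Lrig1, a brake on ErbB receptors that marks crypt base cells, had the highest level, with a median of 19.2 FPKM (8.45 to 26.5). Sox9, a transcription factor of crypt progenitors, followed with 9.32 FPKM (2.43 to 12.9). Lrig1 was above Sox9, and Sox9 above Axin2, in 18 of 18 libraries. The next 5 genes lay close together. Median levels were 4.44 FPKM for Axin2, 4.19 for Ephb2, 3.80 for Rnf43, 3.45 for Ascl2 and 3.37 for Smoc2. Neighbours in this order were above the next in only 8 to 13 of 18 libraries, so their order does not hold beyond the spread. Rspo3 had 1.5 FPKM (0.754 to 3.67), Znrf3 1.01 FPKM (0.205 to 1.48) and Lgr5 0.405 FPKM (0.142 to 1.75). Smoc2 was above Rspo3 in 17 of 18 libraries, Rspo3 above Znrf3 in 14 and Znrf3 above Lgr5 in 13. Lgr5, the receptor that defines crypt base stem cells, thus had the lowest median level of the 10 and also the widest range, its highest CPM being 9.40 times its lowest, while Lrig1 had the narrowest at 2.36 times. Behind these values stand 120 to 10596 counts per gene and library, the fewest for Znrf3 in TNBS 5.

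**Figure D1:**
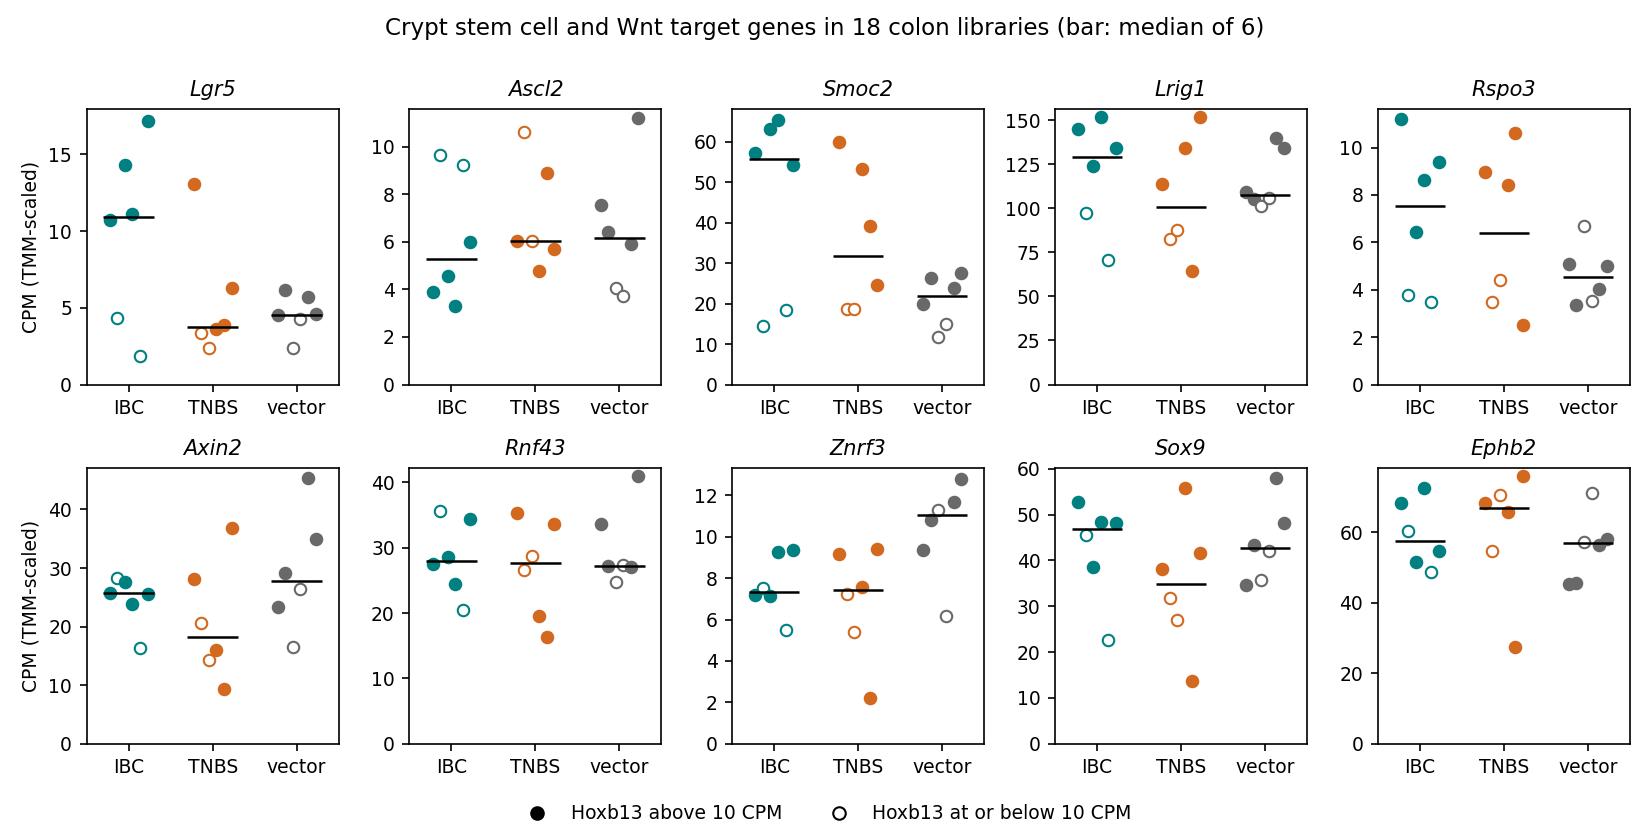
Level of each of the 10 genes in CPM (vertical axes, linear, from 0) in IBC, TNBS and vector libraries, with 1 point per library, the median of 6 as a bar, filled points for the 12 Hoxb13-high libraries and open points for the 6 Hoxb13-low ones. The filled IBC points of Smoc2 lie at 54.4 to 65.5 CPM and those of vector at 20 to 27.6 CPM, while the open points of all groups lie at 11.7 to 18.6 CPM.

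Rspo3 (ENSMUSG00000019880, chromosome 10 from 29328412 to 29411863, minus strand, positions as in the deposited table) encodes an R-spondin that colonic stromal cells secrete. Its lowest, median and highest levels were 3.48, 7.54 and 11.2 CPM in IBC, 2.53, 6.42 and 10.6 CPM in TNBS and 3.35, 4.52 and 6.68 CPM in vector libraries. The groups overlapped, with 4 of 6 IBC and 3 of 6 TNBS libraries above the vector median. The log2 difference was 0.63 ± 0.36 (SE) when IBC was set against vector, 0.47 ± 0.36 when TNBS was, and 0.16 ± 0.36 between IBC and TNBS (edgeR adjusted p = 0.684, 0.477 and 0.972). None of these passed the threshold of 0.05.

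Lgr5 (ENSMUSG00000020140, chromosome 10 from 115286216 to 115423685, minus strand) encodes an R-spondin receptor. It had 1.83, 10.9 and 17.2 CPM (lowest, median, highest) in IBC, 2.39, 3.76 and 13.1 CPM in TNBS and 2.38, 4.56 and 6.15 CPM in vector libraries. The IBC values split, with 4 libraries at 10.7 CPM or more and the other 2 at 4.34 and 1.83 CPM, and 1 TNBS library, TNBS 1, reached 13.1 CPM while the other TNBS libraries stayed at 6.30 CPM or less. The log2 difference was 1.1 ± 0.47 for IBC against vector (unadjusted p = 0.029, edgeR adjusted p = 0.519), 0.87 ± 0.46 for IBC against TNBS (edgeR adjusted p = 0.925, 5 of 6 IBC libraries above the TNBS median) and 0.24 ± 0.46 between TNBS and vector (edgeR adjusted p = 0.798). Without TNBS 1 the last of these was -0.24 ± 0.43 and that of IBC against TNBS was 1.34 ± 0.44 (edgeR adjusted p = 0.761). Lgr4, the related receptor, was far more abundant at 68.9 to 171 CPM over the 18 libraries.

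Among the feedback inhibitors, Znrf3 and Axin2 had lower medians in TNBS than in vector libraries, and Rnf43 did not. Axin2 (ENSMUSG00000000142, chromosome 11 from 108811175 to 108841609, plus strand), a scaffold of the beta-catenin degradation complex, had 16.3, 25.7 and 28.3 CPM in IBC, 9.36, 18.3 and 36.8 CPM in TNBS and 16.5, 27.7 and 45.3 CPM in vector libraries. TNBS held both low and high libraries, and its range enclosed every IBC value. The log2 difference of Axin2 was -0.49 ± 0.28 with TNBS and -0.25 ± 0.28 with IBC set against vector, and 0.24 ± 0.28 with IBC set against TNBS (edgeR adjusted p = 0.360, 0.871 and 0.940).

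Znrf3 (ENSMUSG00000041961, chromosome 11 from 5226324 to 5394847, minus strand), a ubiquitin ligase that removes Frizzled receptors, had 5.47, 7.35 and 9.37 CPM in IBC, 2.23, 7.41 and 9.40 CPM in TNBS and 6.18, 11 and 12.8 CPM in vector libraries. All 6 IBC and all 6 TNBS libraries lay below the vector median, and the groups overlapped only because vector 4 was at 6.18 CPM and vector 1 at 9.36 CPM. The log2 difference was -0.60 ± 0.27 for TNBS against vector (unadjusted p = 0.0398, edgeR adjusted p = 0.263), -0.43 ± 0.27 between IBC and vector (edgeR adjusted p = 0.716) and 0.16 ± 0.27 between IBC and TNBS (edgeR adjusted p = 0.961). Without TNBS 5 that of TNBS against vector was -0.40 ± 0.20 (edgeR adjusted p = 0.403). Rnf43 (ENSMUSG00000034177, chromosome 11 from 87553548 to 87625366, plus strand), the partner ligase with the same action, showed no such order. It had medians of 28.0 CPM in IBC (20.4 to 35.6), 27.7 CPM in TNBS (16.3 to 35.3) and 27.2 CPM in vector libraries (24.7 to 41.0), and log2 differences between -0.18 and 0.09 (edgeR adjusted p of 0.632 or more).

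Smoc2 (ENSMUSG00000023886, chromosome 17 from 14499768 to 14625052, plus strand), a secreted calcium-binding protein known as a crypt base marker and also made by fibroblasts, had the largest difference of the 10 genes. It had 14.4, 55.8 and 65.5 CPM in IBC, 18.6, 31.9 and 60 CPM in TNBS and 11.7, 22.0 and 27.6 CPM in vector libraries. In IBC and TNBS, 4 of 6 libraries each were above the vector median, and the other 2 of each group are the Hoxb13-low ones. The log2 difference was 1.13 ± 0.39 for IBC against vector (unadjusted p = 0.00934, edgeR adjusted p = 0.389), 0.78 ± 0.39 for TNBS against vector (unadjusted p = 0.0585, edgeR adjusted p = 0.296) and 0.35 ± 0.39 between IBC and TNBS (edgeR adjusted p = 0.933).

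Ascl2 (ENSMUSG00000009248, chromosome 7 from 142520566 to 142523001, minus strand), a transcription factor that maintains the stem cell state, did not share this order. It had 3.32, 5.28 and 9.66 CPM in IBC, 4.76, 6.02 and 10.6 CPM in TNBS and 3.73, 6.15 and 11.2 CPM in vector libraries. Its log2 differences were -0.08 ± 0.31 for IBC against vector, 0.12 ± 0.31 for TNBS against vector and -0.20 ± 0.31 for IBC against TNBS (edgeR adjusted p of 0.862 or more).

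The remaining crypt genes differed little between groups. Lrig1 (ENSMUSG00000030029, chromosome 6 from 94581510 to 94677139, minus strand) had medians of 129 CPM in IBC (70.4 to 152), 101 CPM in TNBS (64.5 to 152) and 107 CPM in vector libraries (101 to 140). Part of Lrig1 lies opposite Slc25a26 on the other strand. The table gives 135586 counts to Lrig1 and 10341 to Slc25a26 over the 18 libraries, and whether the counting used strand is not stated, so a small share of the Lrig1 counts is uncertain. Sox9 (ENSMUSG00000000567, chromosome 11 from 112673050 to 112678586, plus strand) had medians of 46.9 CPM in IBC (22.6 to 52.7), 34.9 CPM in TNBS (13.7 to 55.8) and 42.6 CPM in vector libraries (34.6 to 58.0). In 5 of 6 IBC libraries Sox9 was above the TNBS median, with a log2 difference of 0.30 ± 0.26 (edgeR adjusted p = 0.925). Ephb2 (ENSMUSG00000028664, chromosome 4 from 136374850 to 136563299, minus strand), an ephrin receptor that positions cells along the crypt, had medians of 57.6 CPM in IBC (48.8 to 72.5), 66.9 CPM in TNBS (27.4 to 75.8) and 56.8 CPM in vector libraries (45.3 to 71.0). Log2 differences of Lrig1, Sox9 and Ephb2 in the 3 comparisons ran from -0.33 to 0.30, with SEs of 0.19 to 0.26 and edgeR adjusted p of 0.491 or more.

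**Figure D2:**
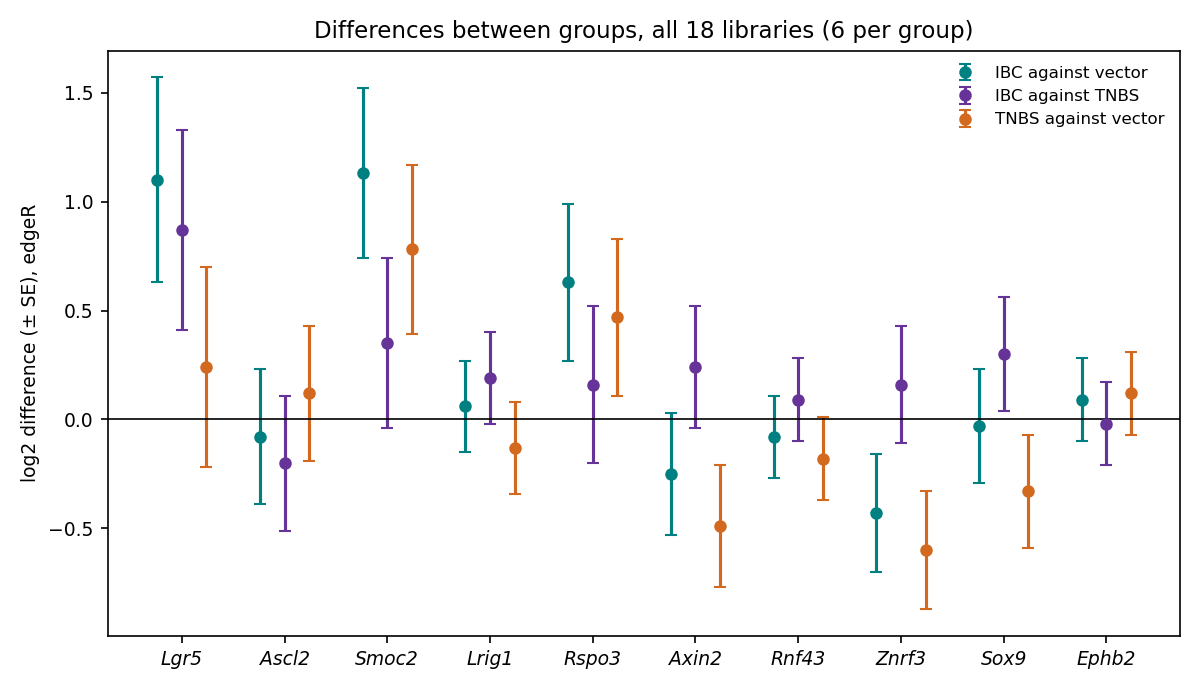
Log2 difference of each gene (vertical axis, points with SE bars, edgeR over all 18 libraries) for IBC against vector, IBC against TNBS and TNBS against vector. Smoc2 and Lgr5 reach 1.13 and 1.1 in IBC against vector, Znrf3 is lowest at -0.60 in TNBS against vector, and no difference passed the threshold after adjustment.

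Counted together, 0 of the 10 genes were called for TNBS against vector, where 4 of all 20855 genes (0.0192%) were. For IBC against TNBS 0 of 10 were called, as were 0 of all genes (0%), and the same held for IBC against vector (0 of 10, and 0% of all genes). At an unadjusted p under 0.05 there was 1 of 10 in TNBS against vector (Znrf3, lower), beside 17.8% of all genes, 0 of 10 in IBC against TNBS, beside 3.93%, and 2 of 10 in IBC against vector (Smoc2 and Lgr5, both higher), beside 8.53%. DESeq2 also called 0 of the 10 in each comparison, beside 2.75% of all genes in the test of TNBS with vector, 0.00959% in that of IBC with TNBS and 0.892% in that of IBC with vector. Of the 10, 5 were higher and 5 lower in TNBS against vector and likewise in IBC against vector, and 8 were higher in IBC against TNBS. Their median log2 difference was -0.01, 0.01 and 0.18 in that order of comparisons, against -0.01, -0.01 and 0.00 over all genes. The 3 comparisons share libraries, so their values are not independent of each other. With all 6 libraries per group, 0 of the 10 had groups without overlap in any comparison, beside 1.17% of all genes with TNBS and 1.08% with IBC set against vector, and 0.149% with IBC set against TNBS.

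Levels of several of these genes differed between the Hoxb13 sets. Smoc2 was at 11.7 to 18.6 CPM in the 6 Hoxb13-low libraries and at 20 to 65.5 CPM in the 12 Hoxb13-high ones, with a difference in mean log2 CPM of -1.31. It was the 1 of the 10 genes without overlap between the sets, beside 2.88% of all genes. Lgr5 had the same difference of -1.31, with a median of 2.86 CPM in the Hoxb13-low and 6.22 CPM in the Hoxb13-high libraries, and its values overlapped. Rspo3 differed by -0.62 and Lrig1 by -0.45, while the other 6 genes differed by -0.36 to 0.18, all with overlap. Axin2, Sox9, Znrf3 and Rnf43 were lower in the Hoxb13-low libraries, and Ephb2 (0.11) and Ascl2 (0.18) higher. These differences pool the 3 groups, and for some genes the groups ran opposite ways. Mean Rspo3 in Hoxb13-low and Hoxb13-high libraries was 5.1 and 4.36 CPM in vector, 3.62 and 8.92 CPM in IBC and 3.94 and 7.63 CPM in TNBS. Mean Ascl2 was 3.9 and 7.75 CPM in vector, 9.44 and 4.44 CPM in IBC and 8.33 and 6.35 CPM in TNBS, in the same order.

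Within the 12 Hoxb13-high libraries, 3 of the 10 genes had higher values in every IBC than in every vector library, beside 6.8% of all 20855 genes. Lgr5 had 10.7, 14.3, 11.1 and 17.2 CPM in IBC and 4.51, 6.15, 5.71 and 4.61 CPM in vector libraries. Smoc2 had 57.2, 63.1, 65.5 and 54.4 CPM in IBC and 20, 26.4, 24 and 27.6 CPM in vector libraries. Rspo3 had 11.2, 6.45, 8.62 and 9.40 CPM in IBC and 5.07, 3.35, 4.04 and 5.00 CPM in vector libraries. The receptor, the crypt base marker and the ligand were thus all higher in IBC than in vector libraries of this set. Mean log2 CPM differed by 1.33 for Lgr5, 1.30 for Smoc2 and 1.02 for Rspo3, each with a two-sided exact permutation p of 0.0286, the smallest that 4 against 4 libraries can give, among 30 such tests made. In an edgeR fit of these 12 libraries alone, which called 30 of 21030 genes (0.143%), Smoc2 had a log2 difference of 1.32 (edgeR adjusted p = 0.0513), Lgr5 of 1.37 (edgeR adjusted p = 0.134) and Rspo3 of 1.06 (edgeR adjusted p = 0.278), so none passed.

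TNBS values of these 3 genes in the same set lay between or across the others. Lgr5 had 13.1, 3.64, 3.88 and 6.30 CPM, Smoc2 60, 53.3, 39.1 and 24.7 CPM, and Rspo3 8.96, 8.41, 10.6 and 2.53 CPM in the Hoxb13-high TNBS libraries, in the order TNBS 1, 4, 5 and 6. TNBS 1 lay inside the IBC range for all 3 genes, and TNBS 6 lay below every IBC library for all 3. Against vector, the mean log2 CPM of TNBS differed by 0.79 for Smoc2 (exact permutation p = 0.0857), 0.64 for Rspo3 (exact permutation p = 0.200) and 0.17 for Lgr5 (exact permutation p = 0.829). IBC was above TNBS by 1.16 for Lgr5 (exact permutation p = 0.0857), 0.51 for Smoc2 and 0.38 for Rspo3. Within these libraries 0 of the 10 genes had groups without overlap for TNBS against vector (5.31% of all genes) or for IBC against TNBS (4.48%).

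In the 6 Hoxb13-low libraries, with 2 per group, these differences were small or of the other sign. Lgr5 had 4.34 and 1.83 CPM in IBC, 3.34 and 2.39 CPM in TNBS and 2.38 and 4.29 CPM in vector libraries. Rspo3 had 3.77 and 3.48 CPM in IBC, 3.47 and 4.42 CPM in TNBS and 6.68 and 3.52 CPM in vector libraries. The 6.68 CPM is that of vector 3, which held 17.98% mitochondrial counts, while vector 4 lay inside the IBC range. Smoc2 had 14.4 and 18.4 CPM in IBC, 18.6 and 18.6 CPM in TNBS and 11.7 and 14.9 CPM in vector libraries. The IBC against vector difference in mean log2 CPM was -0.18 for Lgr5, -0.42 for Rspo3 and 0.30 for Smoc2. An edgeR fit of these 6 libraries alone gave -0.13 ± 0.54, -0.50 ± 0.42 and 0.29 ± 0.27 (edgeR adjusted p = 0.930, 0.592 and 0.633), and no gene of the 10 passed. Tested as an interaction in a fit of all 18 libraries, the Hoxb13-high minus Hoxb13-low difference of that contrast was 1.46 ± 0.66 for Lgr5, 1.52 ± 0.60 for Rspo3 and 0.99 ± 0.38 for Smoc2 (edgeR adjusted p = 0.403, 0.350 and 0.335), so none passed.

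Ascl2 had the smallest interaction p of the 10 genes and ran the other way. In the Hoxb13-high libraries it had 3.88, 4.56, 3.32 and 6.00 CPM in IBC, 6.02, 4.76, 8.91 and 5.70 CPM in TNBS and 7.53, 6.4, 5.91 and 11.2 CPM in vector libraries. In the Hoxb13-low libraries it had 9.66 and 9.23 CPM in IBC, 10.6 and 6.03 CPM in TNBS and 4.07 and 3.73 CPM in vector libraries. The IBC against vector difference in mean log2 CPM was therefore -0.79 in the Hoxb13-high libraries (exact permutation p = 0.0571, with IBC 6 just above vector 5) and 1.27 in the Hoxb13-low ones. With 2 libraries each, the IBC and vector values of Ascl2 and Lrig1 (-0.32) did not overlap there, 2 of the 10 genes, beside 49.7% of all genes, so nothing is read from that. An edgeR fit of the Hoxb13-low libraries alone gave Ascl2 1.27 ± 0.37 (edgeR adjusted p = 0.308). The interaction was -2.08 ± 0.47 for IBC against vector (unadjusted p = 0.000455, edgeR adjusted p = 0.114), and with TNBS set against vector it was -1.38 ± 0.47 (unadjusted p = 0.00957, edgeR adjusted p of 1). Of all 20855 genes the interaction called 1 for IBC against vector and 0 for TNBS against vector. Znrf3 kept its sign in both sets, with TNBS against vector at -0.84 in the Hoxb13-high (exact permutation p = 0.0571) and -0.42 in the Hoxb13-low libraries, and IBC against vector at -0.44 and -0.38. The sign in the Hoxb13-low set rests on vector 3 (11.3 CPM), the library with 17.98% mitochondrial counts. Vector 4, at 6.18 CPM, lay inside the TNBS (7.24 and 5.39 CPM) and IBC (7.51 and 5.47 CPM) values of that set.

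Fibroblast markers moved with the IBC libraries. The summed level of 11 markers (Col1a1, Col3a1, Dcn, Pdgfra and others) was 4550 to 6270 CPM in IBC, 1540 to 4290 CPM in TNBS and 1350 to 2350 CPM in vector libraries of the Hoxb13-high set, with no marker at 0. In the Hoxb13-low set it was 1080 to 1360 CPM in IBC, 1220 to 1440 CPM in TNBS and 1240 to 2440 CPM in vector libraries. The mean log2 level of the 11 markers was 1.11 higher in IBC than in vector among the Hoxb13-high libraries, and that of the pan-epithelial markers differed by -0.21. Taken relative to the fibroblast level of each library (the mean log2 CPM of the 11 markers), the IBC against vector difference was 0.21 for Lgr5, 0.19 for Smoc2 and -0.09 for Rspo3, each with overlapping groups. Relative to the mean log2 level of the 10 pan-epithelial markers it was 1.54 for Lgr5, 1.51 for Smoc2 and 1.23 for Rspo3. On the scale relative to the fibroblast level most genes were lower, with a median of -1.14 over all genes. There was no overlap in the lower direction for 67.6% of them on that scale. The pan-epithelial markers were at -1.32, also without overlap, and so were the other 7 of the 10 genes at -1.90 to -0.85, so nothing is read from those 7.

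Over the 12 Hoxb13-high libraries the fibroblast level was correlated with Smoc2 (Pearson r = 0.890, permutation p = 0.00045, adjusted p = 0.0045 over 20 relations; Spearman rho = 0.797, adjusted p = 0.0294). Without the 2 libraries farthest from the median fibroblast level r was 0.879, but over the 6 Hoxb13-low libraries it was -0.449. Rspo3 followed the fibroblast level in both sets, with r = 0.882 (permutation p = 0.00026, adjusted p = 0.0045; rho = 0.860, adjusted p = 0.0108), 0.789 without the 2 farthest libraries and 0.781 over the Hoxb13-low libraries. Lgr5 had r = 0.673 (permutation p = 0.02, adjusted p = 0.133; rho = 0.580, adjusted p = 0.171), 0.773 without the 2 farthest and -0.361 over the Hoxb13-low libraries. The groups differ in both measures, so part of each r is the difference between groups. Within the 4 libraries of a group, Rspo3 had r = 0.159 in IBC, 0.942 in TNBS and 0.879 in vector, Smoc2 had -0.865 in IBC, 0.906 in TNBS and 0.055 in vector, and Lgr5 had 0.681 in IBC, 0.221 in TNBS and -0.901 in vector, which are too few for a test. No gene passed with the pan-epithelial level (0 of 10). The part of fibroblast content in the Lgr5, Smoc2 and Rspo3 values was not tested.

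**Figure D3:**
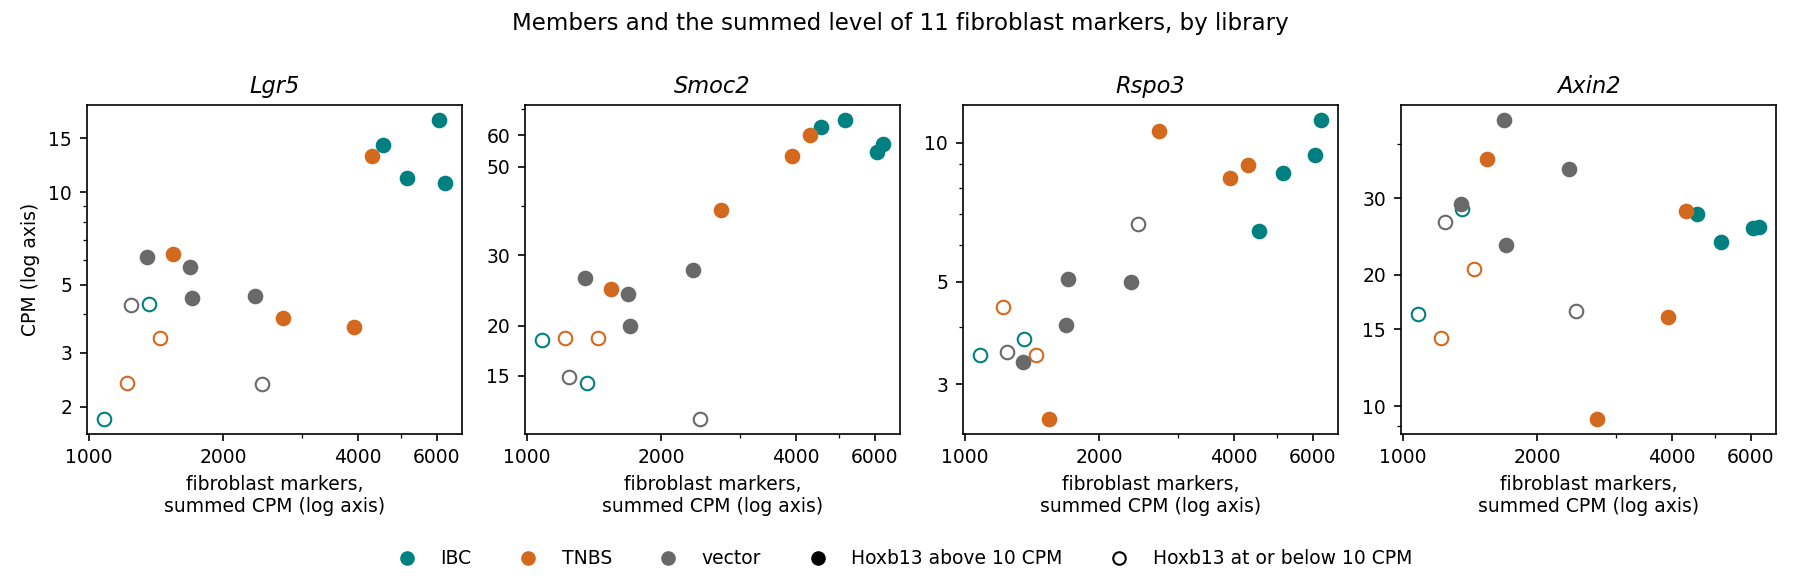
CPM of Lgr5, Smoc2, Rspo3 and Axin2 (vertical, log axes) against the summed CPM of 11 fibroblast markers (horizontal, log axis), with 1 point per library, coloured by IBC, TNBS and vector and filled for Hoxb13-high libraries. Smoc2 and Rspo3 are higher where the fibroblast level is higher among the filled points, the 4 filled IBC points lie farthest right at 4550 to 6270 CPM, and Axin2 has no such slope. Taken with the mean log2 CPM of the markers, not the plotted sum, r over the filled points was 0.890 for Smoc2, 0.882 for Rspo3 and -0.352 for Axin2.

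For Lrig1, Sox9, Ephb2, Axin2, Rnf43 and Znrf3, 1 library stood low. TNBS 5 had the lowest level of all 18 libraries for each of these 6 genes, with 64.5 CPM for Lrig1, 13.7 for Sox9, 27.4 for Ephb2, 9.36 for Axin2, 16.3 for Rnf43 and 2.23 for Znrf3. It was not low for Rspo3 (10.6 CPM), Ascl2 (8.91 CPM) or Smoc2 (39.1 CPM). TNBS 5 also had the highest level of Lyz2, a lysozyme of myeloid cells, with 1300 CPM against 84.2 to 638 CPM in the other 17 libraries. The other 5 leukocyte markers, Ptprc among them, were not high there, with a sum of 76.9 CPM against 48.4 to 235 CPM, and none of the 6 was at 0. The mean log2 CPM of Epcam and Cdh1 was 9.39 in TNBS 5, the lowest of the 18 libraries (9.48 to 10.35 in the rest), and that of all 10 pan-epithelial markers was 9.12, with 1 library lower (8.96 to 9.99 in the rest). It held 9.2% mitochondrial counts. Without TNBS 5 the log2 difference of TNBS against vector was -0.32 for Axin2, -0.15 for Sox9, -0.01 for Lrig1, -0.05 for Rnf43, -0.40 for Znrf3 and 0.29 for Ephb2, none passing. The part of epithelial content and RNA quality in these values was not tested.

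Among the 45 pairs of the 10 genes over the 12 Hoxb13-high libraries, 28 correlated positively and 6 passed by Pearson's r after adjustment over the 45. Ephb2 with Lrig1 passed by both measures, with r = 0.915 (permutation p = 0.00048, adjusted p = 0.0216) and rho = 0.853 (adjusted p = 0.0378), 0.697 without the 2 libraries farthest from the Ephb2 median, 0.750 without TNBS 5 and 0.690 over the 6 Hoxb13-low libraries. Sox9 with Lrig1 had r = 0.907 (adjusted permutation p = 0.0339), which was 0.606 without TNBS 5, and Axin2 with Znrf3 had r = 0.868 (adjusted permutation p = 0.0284), which was 0.635 without it. Axin2 with Rnf43 (r = 0.763) and Rnf43 with Znrf3 (r = 0.750), the feedback inhibitors among themselves, each had an adjusted permutation p of 0.0421 and were at 0.529 and 0.478 without TNBS 5. Without the 2 libraries farthest from the median of the first-named gene, Axin2 with Rnf43 was at 0.771 and Rnf43 with Znrf3 at 0.261. Over the 6 Hoxb13-low libraries r was 0.587 for Axin2 with Rnf43, 0.106 for Rnf43 with Znrf3 and 0.089 for Axin2 with Znrf3. Smoc2 with Rspo3 had r = 0.784 (adjusted permutation p = 0.0421), which was 0.834 without TNBS 5, but -0.704 over the Hoxb13-low libraries. By Spearman's measure this pair did not pass (rho = 0.629, adjusted permutation p = 0.199). Both genes were higher in every IBC than in every vector library of the 12, so part of the 0.784 is the difference between groups. Permutations for all pairs ran across the groups.

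Of the 15 pairs among Lrig1, Axin2, Rnf43, Znrf3, Sox9 and Ephb2, 15 were positive over the 12 libraries (0.450 to 0.915), but without TNBS 5 only 9 were, and 6 were negative, with r from -0.491 (Sox9 with Rnf43) to 0.750 (Ephb2 with Lrig1). Within the 12 Hoxb13-high libraries the common pattern of these 6 genes thus rested largely on TNBS 5. Over the 6 Hoxb13-low libraries, which do not hold TNBS 5, only Ephb2 with Znrf3 was negative (r = -0.186). The other pairs were positive there, with r from 0.089 (Axin2 with Znrf3) to 0.868 (Sox9 with Lrig1), values without a test.

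Lgr5 followed none of these genes closely. Its r was 0.646 with Smoc2, 0.325 with Rspo3, 0.295 with Axin2 and -0.530 with Ascl2 over the 12 libraries, and none of these passed. Over the 6 Hoxb13-low libraries r between Lgr5 and Axin2 was 0.915 and between Lgr5 and Sox9 0.887. Ascl2 correlated negatively with Smoc2 (-0.619), Ephb2 (-0.564) and Lrig1 (-0.538), and Axin2 with Rspo3 (-0.625), none passing.

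**Figure D4:**
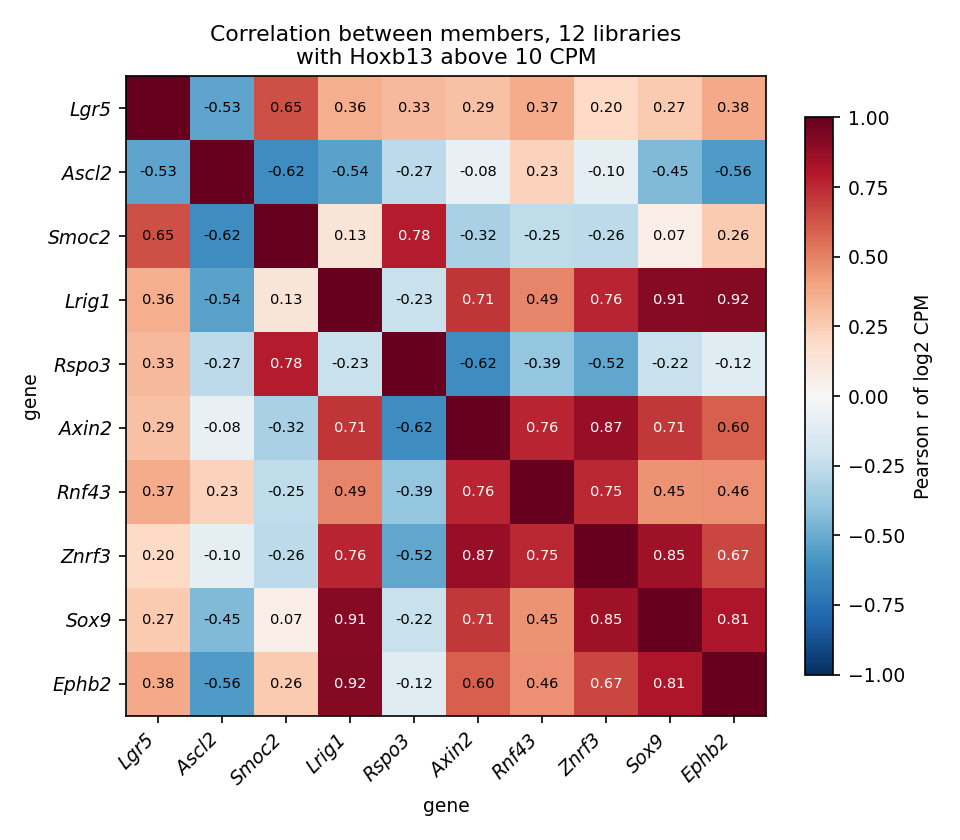
Pearson r of log2 CPM between each pair of the 10 genes over the 12 Hoxb13-high libraries (colour scale from -1 to 1, value printed in each cell). Lrig1, Axin2, Rnf43, Znrf3, Sox9 and Ephb2 are positive with each other in 15 of 15 pairs (9 of 15 without TNBS 5), Smoc2 goes with Rspo3 (0.784), and Ascl2 is negative with Lgr5 (-0.530).

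The genes most like Lgr5, Axin2, Sox9 and Rspo3 over the same 12 libraries were taken from 15808 genes with a mean of at least 1 CPM. For Lgr5 they were Foxf2 (r = 0.928), a forkhead factor of gut mesenchyme, Adamts7 (0.922), Gria4 (0.919), Dlg4 (0.892) and Wnt5a (0.889), a Wnt ligand of the stroma. Over the 6 Hoxb13-low libraries r with Lgr5 was 0.642 for Gria4, 0.069 for Adamts7, -0.183 for Dlg4, -0.289 for Foxf2 and -0.482 for Wnt5a. For Rspo3 they were Vim (0.970), the intermediate filament of mesenchymal cells, Ppic (0.954), Gpr153 (0.948), Hhipl1 (0.938) and Fstl1 (0.938), with r between 0.686 and 0.957 over the Hoxb13-low libraries. Axin2 was closest to Xrcc3 (0.954), Mroh2a (0.948), Mospd2 (0.946), Gramd4 (0.945) and Cdk6 (0.944), and Sox9 to Gtpbp1 (0.981), Bach2 (0.98), Gpsm1 (0.969), Fhip2a (0.969) and Tecpr1 (0.968). Over the Hoxb13-low libraries r was 0.289 (Xrcc3) to 0.756 (Mospd2) with Axin2 and 0.192 (Gtpbp1) to 0.846 (Bach2) with Sox9. The 12 libraries include TNBS 5, the lowest of the 18 for both Axin2 and Sox9. The highest of 15808 values are high by selection.

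The wider pathway was read through lists of genes named by role, and no value given for their genes here passed after adjustment over all genes. Among Wnt ligands and their secretion (14 genes that passed the filter), 7 were higher and 7 lower in IBC against vector, and Wnt5a stood out with 15, 25.1 and 33.1 CPM (lowest, median, highest) in IBC, 11, 14.9 and 31.6 CPM in TNBS and 8.74, 11.5 and 23.7 CPM in vector libraries. All 6 IBC libraries were above the vector median of Wnt5a (log2 difference 0.90 ± 0.29, edgeR adjusted p = 0.363). Among 16 receptors and co-receptors 9 were higher in IBC against vector and 8 in TNBS against vector, with Ryk, a Wnt-binding receptor, at 0.34 ± 0.14 in TNBS against vector (edgeR adjusted p = 0.223). The other R-spondins and receptors (4 genes) had medians of 0.19, 0.18 and 0.02 in IBC against vector, IBC against TNBS and TNBS against vector. Of 11 secreted inhibitors 7 were higher in IBC against vector and 6 in TNBS against vector.

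Of 20 genes of beta-catenin degradation and its nuclear effectors, 17 were lower in TNBS against vector (median -0.21, against -0.01 over all genes) and 14 in IBC against vector (median -0.09). Without TNBS 5 the first of these was 14 lower with a median of -0.08. The summed level of the list was 1430 CPM in TNBS 5, 1930 to 2330 CPM in the other TNBS and 1960 to 2180 CPM in vector libraries. Dvl1, which relays the Wnt signal from the receptor, had 67.8, 69.5 and 80.8 CPM in IBC and 87.9, 96.1 and 103 CPM in vector libraries, without overlap (-0.40 ± 0.11, edgeR adjusted p = 0.284). Among 16 other Wnt target genes 9 were lower in TNBS against vector, led by the feedback inhibitor Nkd2 with 2.00, 4.13 and 5.45 CPM in TNBS and 5.12, 8.72 and 15.8 CPM in vector libraries (-1.34 ± 0.29, edgeR adjusted p = 0.0909). Nkd1, its paralogue, was at -0.94 ± 0.32 (edgeR adjusted p = 0.183). Other targets had the opposite sign. At an unadjusted p under 0.05 there were 2 of the 16 lower, the Nkd genes, and 2 higher, beside 17.8% of all genes in either direction. The 2 higher ones, named here for that reason, were the transcription factors Myc (0.60 ± 0.23, edgeR adjusted p = 0.214) and Sp5 (1.85 ± 0.82, edgeR adjusted p = 0.257). Apcdd1, another Wnt inhibitor among the targets, had medians of 7.5 CPM in IBC, 5.7 CPM in TNBS and 3.45 CPM in vector libraries (IBC against vector 0.83 ± 0.30, edgeR adjusted p = 0.413).

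Among 14 other crypt base and progenitor markers 10 were higher in TNBS against vector, with Hopx, a marker of slow-cycling crypt cells, at 0.52 ± 0.20 (edgeR adjusted p = 0.216), and 9 in IBC against vector. Of 11 BMP ligands and antagonists 7 were lower in each of these comparisons. Grem1, a BMP antagonist of the stroma beneath the crypts, had 13.6, 157 and 273 CPM in IBC, 21.7, 97.3 and 184 CPM in TNBS and 20.7, 37.0 and 41.8 CPM in vector libraries (IBC against vector 2.04 ± 0.66, edgeR adjusted p = 0.360), with 143 CPM or more in the Hoxb13-high and 20.4 CPM or less in the Hoxb13-low IBC libraries. Proliferation genes were higher in 10 of 10 cases in TNBS against vector (median 0.65) and in IBC against vector (median 0.63), among them Cdk1 at 0.96 ± 0.24 and 0.69 ± 0.24 (edgeR adjusted p = 0.103 and 0.385). Genes of injury-type epithelium were higher in 10 of 10 cases in TNBS against vector (median 1.05) and in 9 of 10 in IBC against vector (median 0.84), with Ly6a at 2.13 ± 0.56 in the first (edgeR adjusted p = 0.113). The 10 crypt and Wnt genes had medians of -0.01 and 0.01 in the same comparisons. By library, the groups overlapped in the summed level of both lists. Injury-type genes summed to 540 to 1700 CPM in TNBS, 572 to 1020 CPM in IBC and 397 to 785 CPM in vector libraries. Proliferation genes summed to 691 to 1000, 568 to 1110 and 321 to 805 CPM in the same order.

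Among cell type marker lists, fibroblast markers were higher in 10 of 11 cases in IBC against vector (median 0.79) and 8 of 11 in TNBS against vector (median 0.41, and 0.20 without TNBS 5). Smooth muscle markers were lower in 10 of 10 cases in TNBS against vector (median -0.84) and in IBC against vector (median -0.59), and 1 of them, Synm, fell by 1.72 ± 0.28 on the log2 scale in TNBS against vector (edgeR adjusted p = 0.0471), which was -1.53 ± 0.23 without TNBS 5 and no longer passed (edgeR adjusted p = 0.0555). Medians of the surface colonocyte, goblet cell and pan-epithelial lists were 0.03, -0.12 and 0.06 in IBC against vector and -0.14, 0.01 and 0.13 in TNBS against vector.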

How the data were processed

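Polyadenylated RNA of colon tissue was sequenced, and reads were trimmed with cutadapt 1.9, per the submitters' processing notes. Which aligner, counter, annotation and build were used is not given in the sources used here. Per the file headers, each gene and library has a count and an FPKM value in the authors' table. Its counts are whole numbers, but a count of 4 (19961 gene and library pairs) was more frequent than 3 (9977) or 5 (6358), so 1 fragment can be worth more than 1 count. Coordinates are those of the table, of which 639 of 32979 shared genes matched GENCODE M21, so no build is named.

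Low counts were removed with filterByExpr, totals scaled by TMM, and genes tested two-sided with edgeR 4.0.16 (quasi-likelihood, a single fit of 18 libraries, Benjamini-Hochberg over 20855 genes, threshold 0.05) under R 4.3.3. The method was tested on simulated data. Log2 CPM used a prior count of 2, and correlations 100000 permutations. Alternatives used DESeq2 1.42.0, limma 3.58.1 on log2 FPKM with pseudocounts of 0.1 and 1, filters, counts divided by 4, a replicate block, and Hoxb13 as a covariate or split at 10 CPM. Same-numbered libraries were not paired (7 of 18 pairs above r = 0.1, median -0.0208), and no duplicates were found. Files were read with the R package data.table, version 1.17.8.

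The genes, the 23 other lists (212 of whose 235 genes passed the filter), the Hoxb13 split and the tests were chosen with earlier results of these data known. Named from each pathway list were genes called or the 2 with the smallest p per comparison, and from Lgr5, Axin2, Sox9 and Rspo3 the 5 most alike genes. The interaction, the fibroblast-relative values, the correlations with marker lists, the correlations and list counts without TNBS 5, the leukocyte markers without Lyz2, and the E-box search were added after seeing the data.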

Additional observations from a re-analysis of the deposited data

Results flagged for a closer look

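The Lgr5 level of TNBS 1, 13.1 CPM, stood apart from the other 5 TNBS libraries, which lay at 2.39 to 6.30 CPM. Its gap to the next library made up 0.633 of the range of the group, above the critical value for 6 libraries. Of 30 combinations of gene and group tested in this way 1 was set apart, and chance alone sets apart about 1 in 20. TNBS 1 also had the highest summed fibroblast level of its group (4290 CPM) and the highest summed squamous epithelium level (188 CPM, against 1.55 to 25.5 CPM in the other TNBS libraries). The part of either in its Lgr5 level was not tested.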

How the results depend on the processing

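None of the 10 genes was called in any comparison under any of the alternatives run. The number of all genes called moved more. For TNBS against vector, with 4 genes called, it was 574 with DESeq2, 142 with the Hoxb13 set as covariate, 2 with at least 1 CPM in 6 libraries and 1 with the replicate block. It was 0 with counts divided by 4, with limma and either pseudocount, without a filter, within either Hoxb13 set, and in a fit of the 2 groups alone. For IBC against TNBS, with 0 called, DESeq2 called 2. For IBC against vector, with 0 called, it was 186 with DESeq2, 4 with the covariate, 30 in the Hoxb13-high libraries and 8 in a fit of the 2 groups alone. Without 1 library the counts ran from 0 to 323 (the highest without TNBS 6), from 0 to 1 and from 0 to 5 in the same 3 comparisons. The cause of these moves was not tested.

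Of 360 differences of single genes under alternatives other than leaving out a library, 334 kept their sign. With the replicate block, Lgr5 in TNBS against vector was 0.00 and Ephb2 in IBC against TNBS 0.01, and the block changed no call among the 10 genes. With limma, Ephb2 in IBC against TNBS was 0.13 and 0.09 (pseudocounts 0.1 and 1), Sox9 in IBC against vector 0.02 and 0.03, and Rnf43 there 0.00. The smaller pseudocount moved the median of all genes in IBC against TNBS by 0.116. In the Hoxb13-high libraries alone Ascl2 in TNBS against vector was -0.28, Ephb2 in IBC against TNBS 0.08 and Sox9 in IBC against vector 0.06. In the Hoxb13-low libraries alone IBC against vector was 1.27 for Ascl2, 0.05 for Axin2, -0.24 for Ephb2, 0.10 for Rnf43, -0.13 for Lgr5, -0.50 for Rspo3 and -0.31 for Lrig1. There IBC against TNBS was -0.03 for Lrig1, -0.19 for Smoc2, 0.18 for Ascl2 and -0.13 for Rspo3, and TNBS against vector was -0.37 for Rspo3, 0.09 for Rnf43, -0.04 for Ephb2 and -0.23 for Lgr5.

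Without 1 library, signs turned in 21 of 360 cases, within ranges of -0.26 to 0.14 (Ascl2), -0.15 to 0.03 (Rnf43), -0.02 to 0.17 (Lrig1) and -0.10 to 0.10 (Sox9) in IBC against vector, -0.04 to 0.34 (Ascl2) and -0.24 to 0.39 (Lgr5) in TNBS against vector, and -0.17 to 0.05 (Ephb2), -0.01 to 0.19 (Rnf43), -0.01 to 0.37 (Rspo3) and -0.01 to 0.28 (Znrf3) in IBC against TNBS. Lgr5 and Smoc2 in IBC against vector kept to 0.88 to 1.32 and 1.00 to 1.32, and Znrf3 in TNBS against vector to -0.71 to -0.40. With 2 Hoxb13-low libraries per group, differences in that set have little precision, and counting error is small beside the spread between libraries.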
